A study of Danio rerio with 4 samples.

Results

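The regions described here are 1778 wide stretches of accessible chromatin that the authors' peak list of the control group holds and their list of the actl6a knockdown group does not. They were chosen as control-list peaks on the 25 named chromosomes that are at least 800 bp wide and share no base with an actl6a-list peak, leaving out chromosome 4 beyond 30000000. They are 7.37% of the 24109 peaks in the control list and 39.2% of the 4530 control peaks of that width in the same part of the genome, and they cover 1883 kb. Both peak lists were made from the libraries compared below, so the choice of these regions favours higher signal in control than in actl6a libraries. That contrast is therefore given as a description, and the limma counts for it stand beside those of all peaks with nothing read from them.

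The study asked which chromatin regions depend on actl6a in the pronephros, the embryonic kidney of the zebrafish. ATAC-seq was run on pronephric ducts at 30 hours post fertilization, and each group has 2 libraries. All embryos came from a transgenic line whose GFP, driven from the Na,K-ATPase gene atp1a1a.4, marks the pronephric epithelium, and all were injected at the 1-cell stage with a morpholino, an antisense oligonucleotide. The control group has the genotype label WT and received a standard control morpholino, and the other group has the label actl6a knockdown and received morpholinos that block translation of actl6a. Per the labels, ducts were picked by their fluorescence as about 10 fragments from a pool of 15 embryos, and 10000 to 20000 live cells entered each library. Nothing in the labels says that the libraries of a group came from separate clutches, so their spread may be technical.

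Actl6a, also called BAF53a, is an actin-related subunit of the SWI/SNF chromatin remodelling complexes, which use ATP to slide or evict nucleosomes and keep promoters and enhancers open. It is also part of the INO80 and TIP60 complexes. In ATAC-seq a transposase inserts adapters where DNA is free of nucleosomes, and a peak is a place where such insertions pile up. The duct epithelium carries many motile cilia and reabsorbs salts. The lists and tracks name no genes and no genome or annotation of their build, GRCz11, was used here, so the regions are given by position only, and the tissue was not checked against marker genes. In bulk samples, a region that is open in fewer cells and one that is less open in each cell cannot be told apart.

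Signal is given as the mean coverage of a region divided by the mean of that library over the 25 chromosomes, so that 1 is the genome mean. The inferred depth was 117 and 136 M reads (M for mega) in control replicates 1 and 2, and 148 and 165 M in actl6a replicates 1 and 2. A median member thus held 198 and 207 inferred reads in control against 171 and 176 in actl6a libraries, and none had under 10 in any library. Both actl6a libraries were deeper, and depth was not tested as a source of the differences.

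The wide control-only peaks were modestly open regions in control ducts. Their median signal was 2.36 in control replicate 1, 2.14 in control replicate 2, 1.57 in actl6a replicate 1 and 1.46 in actl6a replicate 2. Both actl6a medians lay below both control medians, and all 4 lay above the genome mean. As group values these are 2.25 ± 0.152 for control and 1.52 ± 0.0785 for actl6a (SD, n = 2). Single members ranged from 0.551 to 70.5 in control replicate 1 and from 0.139 to 72.7 in control replicate 2, with the quartiles at 1.89 and 2.87 and at 1.75 and 2.57. In the actl6a libraries they ranged from 0.223 to 61.1 and from 0.301 to 66.8, with the quartiles at 1.25 and 1.98 and at 1.17 and 1.80. At least 2 times the genome mean was reached by 69.9% and 59.9% of members in the control libraries and by 24.0% and 13.6% in the actl6a libraries.

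**Figure D1:**
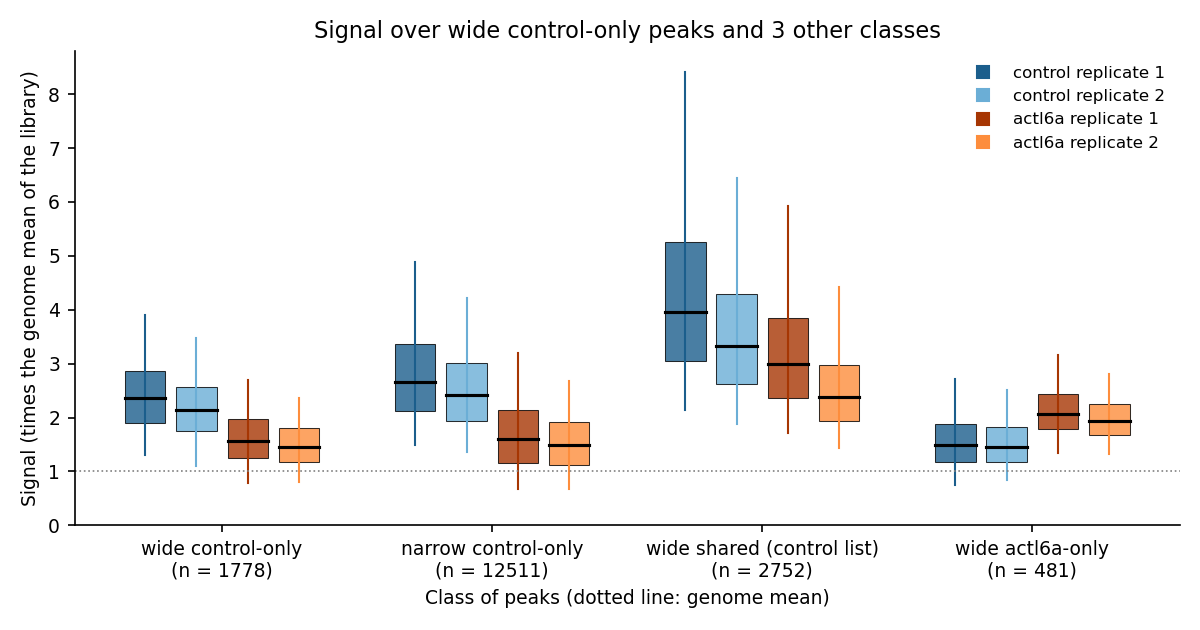
Signal, in multiples of the genome mean of each library, over wide control-only peaks and 3 other classes; boxes span the quartiles, black bars are medians and vertical lines run from the 5th to the 95th percentile of peaks. Over wide control-only peaks the medians of the control libraries were 2.36 and 2.14 and those of the actl6a libraries 1.57 and 1.46.

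Per region, the log2 of the signal plus 0.5 was averaged within each group, and the difference actl6a minus control had a median of -0.43 over the members (quartiles -0.60 and -0.26, range -1.27 to 0.52). The same median over all 29639 union peaks, made by merging both lists, was -0.36. Outside the left-out part of chromosome 4, the union peaks are a mixture of 32.6% shared, 48.8% control-only and 18.6% actl6a-only peaks. The median over all union peaks thus depends on this mixture. Over wide control peaks overlapping an actl6a peak the median was -0.38. Whether a shift common to all peaks is part of these medians was not tested. The members' median lay -0.074 from it. When the libraries were instead scaled to the median signal of union peaks, the median of all union peaks was -0.083 and that of the members -0.17, a distance of -0.090. On the scale of the genome mean, the difference was above 0 in 65 members (3.66%), against 22.9% of all union peaks. It was above 0 in 2.60% of control-only peaks narrower than 800 bp and in 5.45% of wide control peaks overlapping an actl6a peak.

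In 1169 members (65.7%) both actl6a libraries were lower than both controls, which was also the case in 47.1% of all union peaks. In 6 members (0.337%) both actl6a libraries lay above both control libraries, against 11.0% of union peaks. In the remaining 603 the groups overlapped. The contrast chose the members, so nothing is read from these counts. With libraries scaled to the median of union peaks, 560 members (31.5%) and 25.3% of union peaks had both actl6a libraries below.

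A limma fit over all union peaks called 0 members at an adjusted p under 0.05, while 0.132% of union peaks were called as lower and 0.101% as higher in actl6a libraries. The union peaks include the part of chromosome 4 that the members leave out. A fit without chromosome 4, added after the results had been seen, called 0 members and 0 union peaks. The smallest adjusted p of a member was 0.0627. At an unadjusted p under 0.05 limma had 246 members (13.8%), all lower in actl6a libraries, against 18.4% of union peaks that were lower and 4.41% that were higher. At an adjusted p under 0.1 limma had 12 members, all lower, against 2.86% of union peaks. The median standard error of the log2 difference of a member was 0.34 beside a median difference of -0.43. With libraries scaled to the median of union peaks, 36 members (2.02%) were lower at an unadjusted p under 0.05, against 6.0% of union peaks, and 1 was higher. When replicate numbers entered the fit as a block, 38 members (2.14%) were called, all lower, against 7.93% of union peaks that were called as lower. Leaving out control replicate 2 gave 5 members (0.281%) against 1.74% of union peaks, and leaving out actl6a replicate 1 gave 1 member (0.0562%) against 1.37%. The unadjusted count was 116 members (6.52%) without control replicate 1, against 10.1% of union peaks, and 101 (5.68%) without actl6a replicate 2, against 10.7%. Over the highest 100 bp of each peak, 1 member (0.0562%) was called, against 0.0337% of union peaks.

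**Figure D2:**
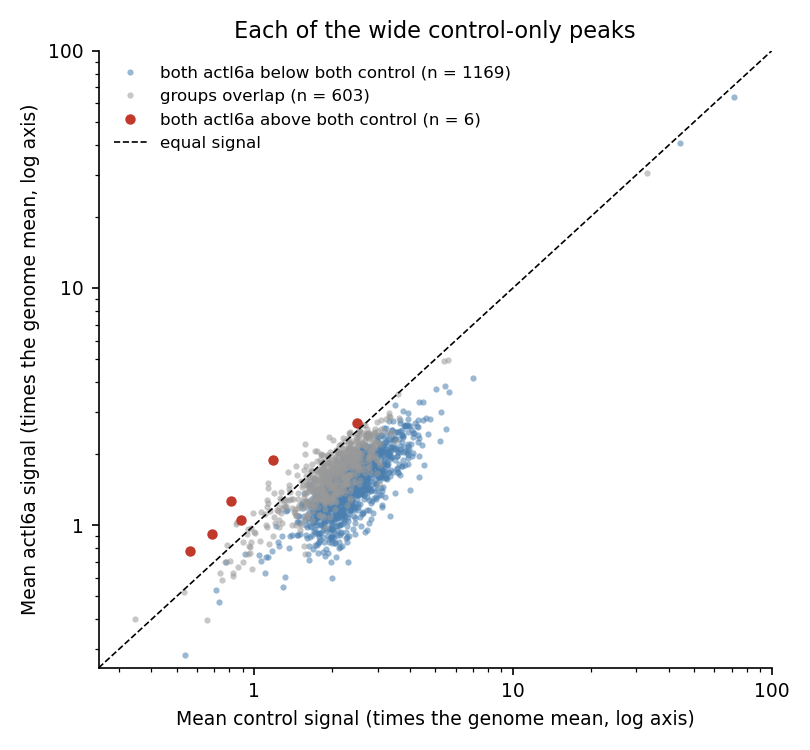
Mean signal of the 2 actl6a libraries against that of the 2 control libraries for each of the 1778 wide control-only peaks, on log axes; colours show whether the libraries of the groups overlap. Most points lie below the line of equal signal, 6 red points lie above it without overlap, and 3 points with a mean control signal above 20 stand apart near the line.

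Absence from the actl6a list did not mean absence of signal. Each region was compared with its own flanks, 500 to 1500 bp outside the peak with all listed peaks left out. The members had 2.71 and 2.45 times the signal of their flanks in the control libraries and 1.71 and 1.58 times in the actl6a libraries (medians). In the actl6a libraries the excess of a member over its flanks was, in the median, 44.0% of that in the control libraries, over the 1737 members with such an excess in control. By the same measure it was 61.1% over all union peaks and 39.3% over control-only peaks narrower than 800 bp. Over control peaks of at least 800 bp that overlap an actl6a peak it was 64.1%. At least 1.5 times the flanks was found in both actl6a libraries in 722 members (40.6%), in 1 of them in 623 and in neither in 433. In the control libraries the numbers were 1406 (79.1%), 278 and 94. Of all union peaks, 66.7% reached that level in both actl6a libraries and 81.5% in both control libraries. The 1.5-fold level was chosen after the values had been seen.

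Counts from both groups combined show how mixed the regions are. The largest subset, 684 members (38.5%), exceeded its flanks by that factor in all 4 libraries, with a median log2 difference of -0.41. A smaller subset of 221 members (12.4%) exceeded them in both control libraries and in neither actl6a library, with a median of -0.61. The subsets were sorted on the same signals as the difference, so the order of these 2 medians is built in and nothing is read from it. In 79 members (4.44%) no library did so, and these were wider, with a median width of 1328 bp. The actl6a list itself holds 2598 peaks of at least 800 bp outside the left-out arm, and 600 members (33.7%) had a mean actl6a signal at or above the 5th percentile of those listed peaks, which was 1.71. At or above their median of 2.67 there were 35 members (1.97%).

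The flanks were measured on the same scale. Their median signal was 0.867 and 0.867 in control against 0.921 and 0.926 in actl6a libraries. The median log2 difference of the flanks, actl6a minus control, was 0.047, against 0.026 for the flanks of all union peaks. The flanks thus had a median difference of the opposite sign from the peaks. Each library is divided by its own genome mean, so lower signal in peaks goes with higher signal elsewhere. The flank difference is therefore partly built in, and its size depends on the scaling. When libraries were scaled on the signal outside union peaks, the median was 0.039 in the flanks of members. It was 0.018 in those of all union peaks. With libraries scaled to the median of union peaks, the median was 0.26 in the flanks of members and 0.24 in those of all union peaks, beside -0.17 in the members themselves.

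The median profile across the members was a plateau. Within 400 bp of the centre its level was 2.21 and 2.05 in control against 1.53 and 1.40 in actl6a libraries, and beyond 1500 bp it was 0.776 and 0.786, and 0.828 and 0.845. When each member was divided into 10 equal parts, the median log2 difference ran only from -0.46 to -0.40 from part to part. These are medians over many regions and do not show where within a single region the libraries differed. Over the highest 100 bp of each member, placed in the mean of all 4 libraries, the median log2 difference was -0.52. In all union peaks it was -0.40 by that measure, against -0.36 over whole peaks.

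**Figure D3:**
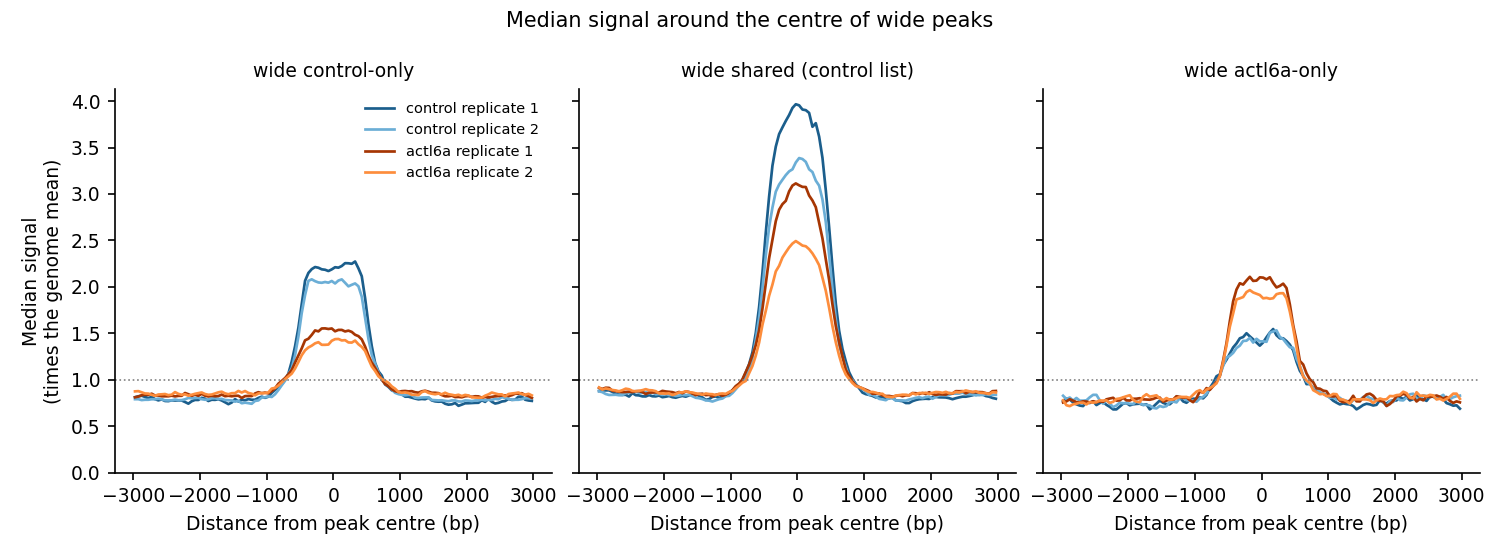
Median signal in multiples of the genome mean, per 50 bp bin, against the distance in bp from the centre of wide control-only, wide shared and wide actl6a-only peaks; each line is 1 library. Over the control-only peaks the control libraries form a plateau at 2.21 and 2.05, the actl6a libraries a lower one at 1.53 and 1.40, and beyond 1500 bp the 4 levels are between 0.776 and 0.845.

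Compared with the 2752 control peaks of the same minimum width that do overlap an actl6a peak, the members had a lower median signal in every library. Those wide shared peaks had median signals of 3.95 and 3.33 in control against 2.997 and 2.38 in actl6a libraries, and a median log2 difference of -0.38. Their groups did not overlap, with actl6a lower, in 56.6%. In the median their tallest bin stood at 6.36 times the genome mean in control, against 3.37 in the members. The part of the peak at or above the level of 50% of that bin was 600 bp in the shared peaks and 800 bp in the members. It was 750 bp in the wide actl6a-only peaks, also in control. No background was subtracted, so a lower peak tends to come out wider by this measure. At least 2 separate humps were found in 29.4% of members and 40.3% of shared peaks in the mean of the control libraries. A hump had to stand out by a fixed height, which lower peaks reach less easily. None of these differences was tested, because the lists chose both classes.

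Peaks of the control list only that were narrower than 800 bp, 12511 in number, had median signals of 2.66 and 2.42 in control against 1.61 and 1.49 in actl6a libraries. Their median log2 difference was -0.58. The mirror class, 481 peaks of at least 800 bp in the actl6a list only, had 1.49 and 1.46 in control against 2.07 and 1.94 in actl6a libraries, with a median log2 difference of 0.34. Its groups did not overlap, with actl6a higher, in 53.4%. Outside the left-out arm, the members were 1778 of 4530 wide control peaks, and this class 481 of 2598 wide actl6a peaks. On the scale of the genome mean its median was 0.34, beside -0.43 in the members. Each lies in the direction that picking peaks in 1 group favours. The members' median depended on the scaling, and no other scaling is given for this class.

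Within the members, signal and width both went with the size of the difference. In the lowest of 4 equal groups by mean control signal, up to 1.92, the median log2 difference was -0.29, and the libraries of the groups were separated with actl6a lower in 44.5%. In the highest, from 2.63 up, the values were -0.56 and 82.5%. The share over all union peaks was 47.1%, above that of the lowest group. Union peaks were not divided by control signal, so no such gradient is given for them. By width, the 638 members under 900 bp had a median of -0.46, the 237 from 1200 to under 1500 bp had -0.40 and the 126 of at least 1500 bp had -0.22. The widest were also the weakest, with a median control signal of 1.74 against 2.29 in those under 900 bp. Mean control signal is 1 side of the difference, so its gradient is partly built in.

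**Figure D4:**
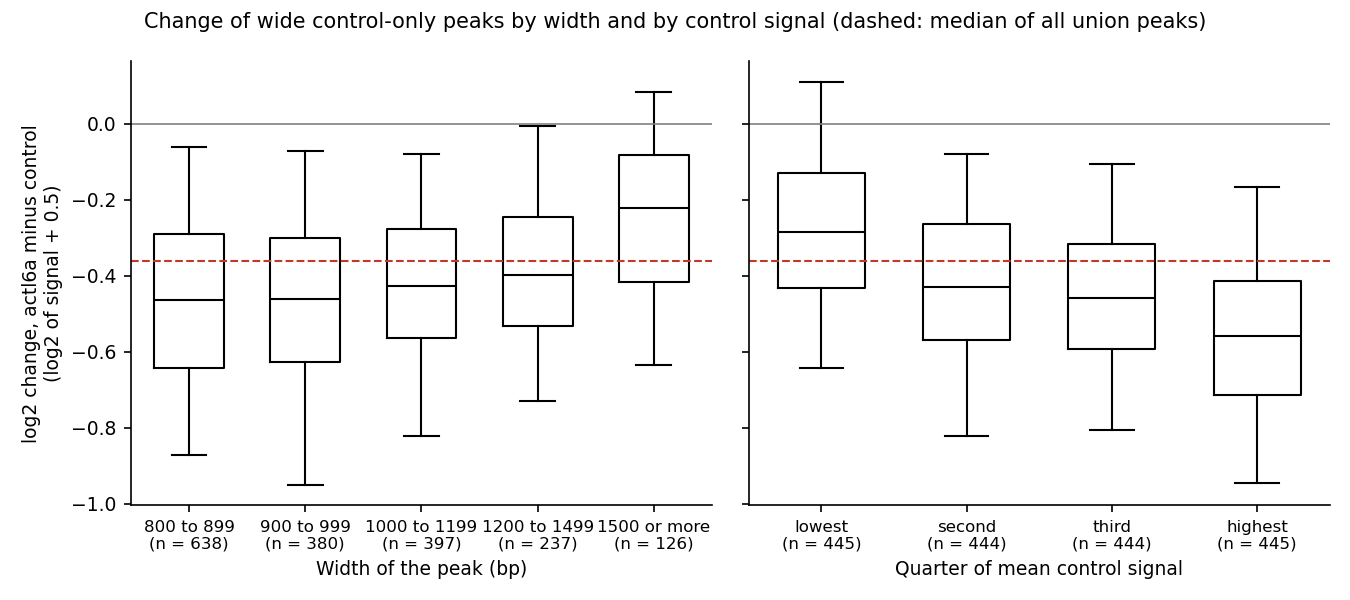
Log2 difference of signal plus 0.5, actl6a minus control, of wide control-only peaks by width in bp and by 4 equal groups of mean control signal; boxes span the quartiles, bars are medians and whiskers run from the 5th to the 95th percentile. Medians go from -0.46 under 900 bp to -0.22 at 1500 bp or more, and from -0.29 to -0.56 from the lowest to the highest control signal.

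Libraries of 1 group agreed at most moderately on these regions. Pearson's r of the log2 values over members was 0.58 for the control pair and 0.57 for the actl6a pair. It lay from 0.57 to 0.64 for pairs with 1 library of each group. Spearman's rho, which depends less on members of extreme signal, was 0.39 for the control pair and 0.41 for the actl6a pair. These are correlations across regions of the same libraries and share their background. Replicates were within 1.5 times of each other in 1330 members in control and 1285 in actl6a libraries. Control replicate 1 was more than 1.5 times control replicate 2 in 322 members and the reverse held in 126. The median absolute log2 difference between replicates was 0.29 in control and 0.26 in actl6a libraries, next to the group difference of -0.43. The former is unsigned and between single libraries, the latter signed and between group means, so they are not directly comparable.

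The position of the tallest bin was not sharply fixed either. It differed by a median of 200 bp within the control pair, and by 250 bp within the actl6a pair. In wide shared peaks both distances were 100 bp, and in wide actl6a-only peaks both were 250 bp. Loosely placed tallest bins were thus not particular to the members. Between the means of the groups the distance was 200 bp in members, 50 bp in wide shared peaks and 200 bp in wide actl6a-only peaks. These means average 2 libraries each and so are not directly comparable with single libraries.

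The most negative difference without overlap lay on chromosome 18 at 34646828 to 34647653. Its signal was 3.66 and 3.01 in control against 0.924 and 1.27 in actl6a libraries. The groups did not overlap, and both actl6a values were near the genome mean. The log2 difference was -1.27 (SE 0.33), with 242 or more inferred reads in each control library and 80.9 and 124 in the actl6a libraries.

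On chromosome 4, at 26488397 to 26489308, signal was 2.56 and 2.04 in control against 0.484 and 0.907 in actl6a libraries. Both actl6a libraries were below the genome mean there, while the flanks were at 0.978 in control and 1.18 in actl6a libraries. The log2 difference was -1.24.

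On chromosome 6, at 60007560 to 60008503, signal was 4.44 and 3.51 in control against 1.54 and 1.26 in actl6a libraries, with a log2 difference of -1.23. On chromosome 11, at 34998874 to 34999766, the values were 1.33 and 2.67 in control against 0.262 and 0.928 in actl6a libraries. Both pairs of replicates differed there by more than the 1.5-fold used above, the actl6a pair by more than the control pair, and the log2 difference was -1.21. The other region of chromosome 4, at 4586437 to 4587560, had 4.64 and 4.04 in control against 1.54 and 1.66 in actl6a libraries. In it both groups were tight, at 4.34 ± 0.426 and 1.60 ± 0.0879 (SD, n = 2), and the log2 difference was -1.20. None of these 5 was called by limma, and all 5 are extremes of 1778 regions.

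**Figure D5:**
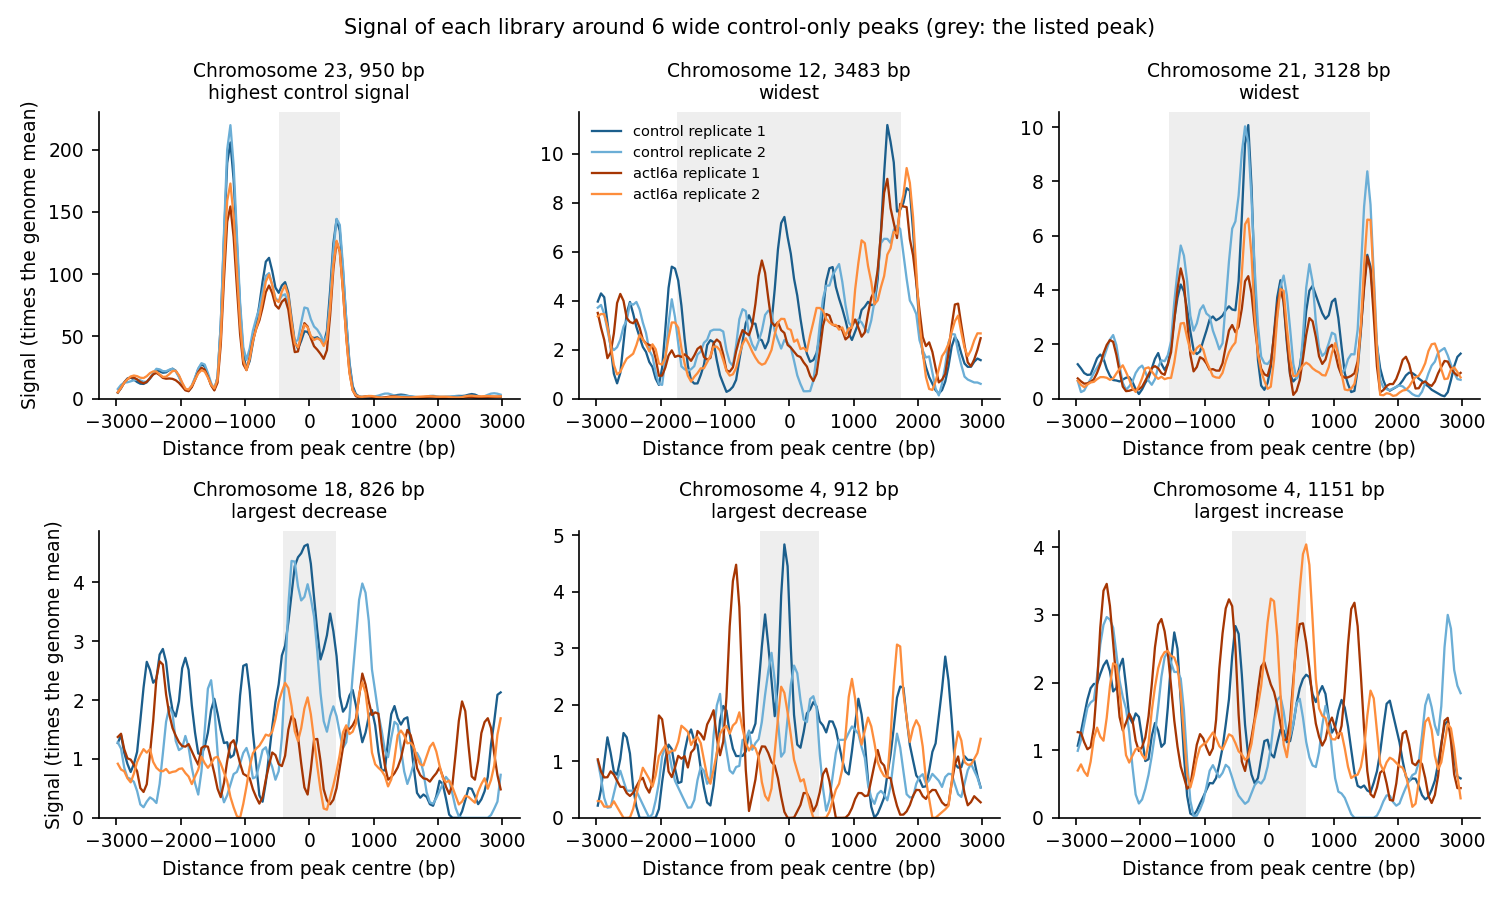
Signal in multiples of the genome mean, per 50 bp bin, against the distance in bp from the centre of 6 wide control-only peaks; lines are the 4 libraries and grey marks the listed peak. Over the peak of highest signal the lines of all libraries rise and fall together, with control means of 70.5 and 72.7 above the actl6a means of 61.1 and 66.8. Control lies above actl6a over most of the 826 bp peak of chromosome 18, and the 1151 bp peak of chromosome 4 stays at or below 1.85 in the mean of the control libraries.

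At the other end, the highest positive difference was on chromosome 4 at 24158353 to 24159503, with 1.40 and 0.957 in control against 1.81 and 1.96 in actl6a libraries. Both actl6a libraries were above both control libraries although the peak is in the control list only, and the log2 difference was 0.52. On chromosome 5, at 4131486 to 4133181, the values were 0.977 and 0.650 in control against 1.28 and 1.23 in actl6a libraries. Control signal in that peak was below the genome mean and below its own flanks, which were at 1.28. On chromosome 15, at 42845658 to 42846537, on chromosome 7, at 6005853 to 6006718, and on chromosome 2, at 56337761 to 56338724, the groups overlapped, with log2 differences of 0.39, 0.31 and 0.29.

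3 members stood far above the others in all 4 libraries. On chromosome 23, at 15999998 to 16000947, signal was 70.5 and 72.7 in control against 61.1 and 66.8 in actl6a libraries, and another listed peak lay 226 bp away. On chromosome 7, at 55069494 to 55070829, it was 44.8 and 43.9 in control against 39.1 and 42.6 in actl6a libraries. The flanks of that peak were brighter than the peak itself in both groups, at 54.4 in control and 48.2 in actl6a libraries. On chromosome 8, at 34792006 to 34792897, it was 31.2 and 34.4 in control against 29.5 and 31.7 in actl6a libraries, where the groups overlapped. Flanks of the chromosome 8 peak were at 33.4 in control and 33.2 in actl6a libraries, also above the peak means of 32.8 and 30.6. The log2 differences of the 3 members were -0.16, -0.12 and -0.0996. These regions had the strongest signal of all members in both groups while missing from the actl6a list.

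The next by control signal were far lower. On chromosome 16, at 21618 to 22453, close to the chromosome start, signal was 8.14 and 5.87 in control against 5.68 and 2.63 in actl6a libraries. On chromosome 19, at 638142 to 639443, it was 6.51 and 4.83 in control against 3.94 and 3.31 in actl6a libraries. In both the flanks differed in the same direction, with log2 differences of -0.54 and -0.45 in the flanks beside -0.75 and -0.57 in the peaks.

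The widest member, 3483 bp, lay on chromosome 12 at 12214161 to 12217643, with signals of 3.58 and 3.02 in control against 3.05 and 2.90 in actl6a libraries. The groups overlapped, and the log2 difference was -0.13. It belongs to the longest run of members within 20 kb of each other, 4 regions between 12208824 and 12224380. Over the 4 the log2 difference ran from -0.13 to -0.0024, the groups overlapped in each, and the flanks lay between 1.83 and 2.91 in control libraries, well above the genome mean. This run was singled out after its values had been seen.

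The second widest, 3128 bp on chromosome 21 at 35903799 to 35906926, had 2.96 and 3.52 in control against 2.09 and 1.94 in actl6a libraries. It held 5 humps in the mean of the control libraries and 5 in that of the actl6a libraries, so several humps were present in both groups. Its log2 difference was -0.57. On chromosome 9, at 21190742 to 21193680, signal was 2.33 and 2.01 in control against 1.18 and 1.52 in actl6a libraries. On chromosome 19, at 17421133 to 17424110, the values were 1.13 and 0.994 in control against 1.08 and 1.20 in actl6a libraries, close to the genome mean throughout. On chromosome 6, at 13959510 to 13962408, they were 1.33 and 0.769 in control against 0.888 and 0.823 in actl6a libraries, so that 1 control library and both actl6a libraries were below the genome mean.

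Values on either side of the width limit overlapped. 5 members were exactly 800 bp wide, and the 3 taken from them, on chromosomes 16, 24 and 6, had mean control signals of 2.40, 2.64 and 2.22 and mean actl6a signals of 1.85, 2.10 and 1.40. Just under the limit, 3 control-only peaks of 799 bp were taken, on chromosomes 19, 21 and 16. They had 2.99, 3.48 and 2.55 in control against 1.93, 1.57 and 1.82 in actl6a libraries.

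The members were found on every chromosome. Their number ran from 34 on chromosome 15 to 117 on chromosome 7, and their density from 0.708 per Mb on chromosome 15 to 1.82 on chromosome 18, with a median of 1.41. As a share of all control peaks of at least 800 bp, they made up 27.2% on chromosome 15 and 48.9% on chromosome 18. The median log2 difference ran from -0.49 on chromosome 2 to -0.38 on chromosome 4. Both actl6a libraries were lower than both controls in 55.9% to 72.3% of the members of a chromosome. Over all union peaks this share was 47.1%, and it is not given per chromosome.

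The distance to the nearest other union peak had a median of 13600 bp, and another union peak lay within 5 kb of 20.1% of members. The share was 24.1% in wide shared peaks, 21.5% in narrow control-only peaks and 24.4% in all union peaks. Within 20 kb it was 64.2% of members and 65.4% of all union peaks. A shared peak lay within 5 kb of 118 members, another control-only peak of 183 and an actl6a-only peak of 78. These numbers follow an order that the classes also have among union peaks outside the left-out arm, at 32.6%, 48.8% and 18.6%. The 127 shared peaks beside members had a median log2 difference of -0.30, and the 9414 other shared peaks outside that arm had -0.31. Another member lay within 20 kb of 121 members (6.81%), in 57 runs, and no such share is given for other classes.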

How the data were processed

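ATAC-seq coverage of 4 libraries was deposited by the authors as signal per 50 bp bin, with 1 peak list per group (intervals without scores). Per the submitters' processing notes, GRCz11, Bowtie2, Trim Galore, FastQC, deepTools and MACS2 were used. Their roles and versions, the handling of reads, duplicates and transposase shift, the normalization and how a list combines replicates are not given in the sources used here. Low values (up to 20 steps) were whole multiples of a step per library (within 0.1 of a step, 99.9992% or more). Depth was inferred from the step as if values were RPKM per bin, and covers counting error only.

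Tracks were divided by their mean over 25 chromosomes, and region signal was the length-weighted mean. Both lists were merged into union peaks. limma 3.58.1 (R 4.3.3) was fitted to log2(signal + 0.5) of all union peaks with a trend, two-sided, with Benjamini-Hochberg adjustment, on 2 residual and 32.9 prior degrees of freedom, and checked on simulated data. This scale understates the change of low regions. Other steps used Python 3.11.15 with scipy 1.17.1, numpy 2.4.6, matplotlib 3.10.9 and pandas 2.3.3. Humps are local maxima of the 3-bin mean that stand out by at least 1 genome mean.

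Named regions were the 5 members each of highest control signal, greatest width, largest decrease without overlap and highest log2 difference, and 3 on either side of the width limit. Members and lists were chosen with earlier results of these data known. Alternatives covered scaling, pseudocount, region, filter, width, overlap, variance model, threshold, replicate block and each library left out. Genes, markers and sequence were not analysed here.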

Additional observations from a re-analysis of the deposited data

How the results depend on the processing

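The median log2 difference of the members was below 0 in every setting run, a sign that their choice favours. That of all union peaks was also below 0 wherever it was computed. It ran from -0.43, without control replicate 2, to -0.083, with scaling on the median of union peaks. The members' median was -0.17 with that scaling, -0.53 with a pseudocount of 0.1 and -0.26 with a pseudocount of 2. Over the highest 100 bp it was -0.52, and it ran from -0.49 to -0.38 with 1 library left out. In the other settings it lay from -0.47, with a width minimum of 600 bp, to -0.40, with one of 1000 bp. The count of members with both actl6a libraries below was 560 with scaling on the median of union peaks (31.5%, against 25.3% of union peaks). It was 495 of the 705 members with a mean signal of at least 2 (70.2%), where no share of union peaks is given. With 1 library left out it ran from 1335 to 1515 members, and from 16071 to 19909 of the 29639 union peaks. Fewer libraries separate more easily, so these counts are not comparable with those from all libraries. A width minimum of 600 bp gave 4224 members, of which 2839 (67.2%) had both actl6a libraries below. One of 1000 bp gave 760 with 488 (64.2%), so the share moved little. In all union peaks, which the width minimum does not change, it was 47.1%.

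limma called 0 members in most settings. It called 1 (0.0562%) over the highest 100 bp, against 0.0472% of union peaks in either direction, 12 (0.675%) at an adjusted p under 0.1, against 3.67%, and 38 (2.14%) with the replicate number as a block, against 9.43%. With 1 library left out it called 0 to 5, the 5 without control replicate 2, against 2.56% of union peaks, and 1 without actl6a replicate 1, against 1.5%, where 1 library stands for its group with the spread of the other. The labels do not say that numbers pair samples, and the differences between replicates correlated at r = 0.056 between the groups over union peaks. The region called over its highest 100 bp, on chromosome 1 at 35847638 to 35848820, had 8.33 and 6.83 there in control against 0.906 and 1.33 in actl6a libraries. Leaving out chromosome 4, added after the results had been seen, also gave 0 members and 0 union peaks, down from 69 union peaks, with 237 members (13.7%) at an unadjusted p under 0.05 against 18.4% of union peaks that were lower.

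The flank difference of 0.047 was 0.26 with scaling on the median of union peaks, 0.039 with scaling outside them, 0.069 and 0.022 with pseudocounts of 0.1 and 2, 0.035 in flanks 1000 to 3000 bp away and 0.037 for members of at least 1000 bp. It ran from 0.046 to 0.059 with 1 library left out. Another peak lay within 2 kb of 8.04% and within 20 kb of 64.2% of members. At 2 times the flanks, chosen after the values had been seen, 280 members passed in both actl6a libraries in place of 722. No share of union peaks is given for that level. The cause of these changes was not tested.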
